A study of Mus musculus with 60 samples.

Results

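Polycomb repressive complex 2 (PRC2) is represented here by 10 genes, taken as the rows of the deposited expression table whose Ensembl identifier maps to Ezh1, Ezh2, Eed, Suz12, Jarid2, Aebp2, Mtf2, Phf19, Rbbp4 or Rbbp7. Each was found once among 27238 genes. They were followed in 60 mouse libraries in 20 groups of 3. Embryos of 3 types were sequenced one by one at 6 stages, namely with 1, 2, 4 or 8 cells and as morulas and blastulas, and both kinds of donor cell were sequenced beside them. The labels call for at least 3 independent collections per stage but do not tie a library to one, so the p-values measure the spread between these libraries, part of which may be technical. In vivo embryos came from superovulated C57BL/6 females mated with DBA2 males. NTC embryos were built by nuclear transfer (NT) of cumulus cell (CC) nuclei from BDF1 females into enucleated BDF1 oocytes, and NTM embryos by transfer of nuclei of mouse embryonic fibroblasts (MEFs) grown from BDF1 fetuses. The nuclei of all 3 types are therefore of BDF1 background, but in vivo embryos grew from C57BL/6 oocytes and NT embryos from BDF1 oocytes. No group carries an engineered allele. The oocyte donors were adult females, and the labels give no sex for single embryos. Both NT types were activated with strontium chloride, exposed to the histone deacetylase inhibitor Scriptaid and cultured in vitro. In vivo embryos had none of these steps. Nuclear transfer, activation, Scriptaid, culture and the strain of the oocyte therefore cannot be told apart in any comparison of NT with in vivo embryos. NTC nuclei came from females, so embryo sex adds to these where in vivo libraries include males. The Y-linked gene Ddx3y was at 0.0122, 29.0 and 35.8 RPKM in in vivo blastulas and at most 0.0186 RPKM in NT blastulas. The part of embryo sex was not tested. The sequenced embryos of all 3 types were picked on morphology. MEFs were serum-starved before transfer.

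PRC2 places methyl groups on lysine of the histone H3 tail to give the repressive mark H3K27me3. EZH2 or its paralog EZH1 carries the catalytic domain, EED and SUZ12 are needed for activity and stability, and RBBP4 or RBBP7 binds histones within the core. JARID2 and AEBP2 define the form called PRC2.2, whereas the Polycomb-like proteins MTF2 and PHF19 belong to PRC2.1. The early mouse embryo inherits PRC2 and H3K27me3 from the oocyte, where the mark silences the maternal allele of some genes, and donor nuclei arrive with a somatic pattern of the mark.

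On genome build GRCm38 (GENCODE M21), Ezh2 lies at chr6:47530139-47595341 and Ezh1 at chr11:101191115-101226463, both on the minus strand. Eed is at chr7:89954654-89980983 (minus strand) and Suz12 at chr11:79993106-80034123 (plus strand). Rbbp7 is X-linked, at chrX:162760402-162779092 (plus strand), and Rbbp4 is at chr4:129307100-129335370 (minus strand). Jarid2 is at chr13:44729474-44921643, Aebp2 at chr6:140622663-140678472 and Mtf2 at chr5:108065674-108109004, all on the plus strand, and Phf19 is at chr2:34893757-34914026 on the minus strand. The values are RPKM, reads on a gene scaled to its exon length and to all reads on genes of the library, which allow comparison between genes per length but state each gene as a share of its library. The length behind the Eed values, worked out from its reads, was 2218 nt against 3828 nt in GENCODE M21, while those of the other 9 members were equal to it, so the level of Eed relative to other genes depends on the annotation. An amount per embryo therefore cannot be read from them, and in a blastula fewer cells of a type and less RNA per cell cannot be told apart.

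The results turn most on Suz12 and Eed, which moved together around the 4-cell stage, and on Rbbp4, which moved the other way. The 250 bases upstream of their RefSeq start sites (GRCm38.p6) are printed for that reason, 5' to 3' on the strand of the gene, with capitals for each match, on either strand, of the CCAAT box (letters CCAAT), the SP1 box (letters GGGCGG), the E-box (letters CACGTG), the TATA box (letters TATAAA) and the ETS site (letters CCGGAAG). The windows are chr11:79992856-79993105 (plus strand) for Suz12, chr7:89980977-89981226 (minus strand) for Eed and chr4:129335371-129335620 (minus strand) for Rbbp4.
Suz12: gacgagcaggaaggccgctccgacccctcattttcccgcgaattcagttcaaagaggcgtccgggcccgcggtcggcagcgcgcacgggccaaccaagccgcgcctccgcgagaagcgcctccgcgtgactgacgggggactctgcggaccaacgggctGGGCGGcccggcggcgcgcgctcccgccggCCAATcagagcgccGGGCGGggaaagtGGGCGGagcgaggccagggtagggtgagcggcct
Eed: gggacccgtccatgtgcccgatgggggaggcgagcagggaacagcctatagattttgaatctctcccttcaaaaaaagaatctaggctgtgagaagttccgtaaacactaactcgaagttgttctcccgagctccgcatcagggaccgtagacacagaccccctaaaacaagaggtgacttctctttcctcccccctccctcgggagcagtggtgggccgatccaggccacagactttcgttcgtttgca
Rbbp4: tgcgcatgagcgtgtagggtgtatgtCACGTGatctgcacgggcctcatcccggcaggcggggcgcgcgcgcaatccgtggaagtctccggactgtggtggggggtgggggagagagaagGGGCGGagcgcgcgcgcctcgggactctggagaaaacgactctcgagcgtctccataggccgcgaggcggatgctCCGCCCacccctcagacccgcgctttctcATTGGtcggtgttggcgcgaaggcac

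The Suz12 window held 37 CG dinucleotides, 1 CCAAT box and 3 SP1 boxes, and the Rbbp4 window 30 CG dinucleotides, 1 CCAAT box, 2 SP1 boxes and 1 E-box. In the Eed window there were 12 CG dinucleotides and no match. The median over 32851 promoters of the RefSeq table was 6 CG dinucleotides, and 33.9% of them held the CCAAT box, 32.7% the SP1 box, 6.02% the E-box, 12.4% the TATA box and 6.91% the ETS site. These are letters in a window and say nothing of binding.

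Embryo libraries had 5294167 to 26281508 reads on genes, with a median of 14718210, and every donor library had at least 31558140. Of 600 member values, 44 were 0, of which 40 belonged to Phf19 and 4 to Ezh1. No pair of libraries was identical. The labelled donor identity was checked with defining markers: summed RPKM of 10 fibroblast markers was 8844 to 11666 in MEFs and at most 22.3 in any embryo library, and that of 10 cumulus markers was 846 to 2326 in CCs and at most 58.2 in embryos. The cumulus list also gave 498 to 1217 in MEFs, so it does not separate the donors. Summed RPKM of 10 oocyte markers at the 4-cell stage was 65.0 to 85.1 in vivo, 81.8 to 133 in NTC and 65.1 to 471 in NTM. In blastulas 7 trophectoderm markers summed to 430 to 1099 RPKM in vivo, 164 to 748 in NTC and 295 to 682 in NTM, and 5 pluripotency markers to 133 to 249, 191 to 244 and 201 to 368. Genes above 0 numbered 7730 to 7808 in in vivo blastula libraries, 11771 to 13000 in NTC and 11498 to 13568 in NTM. Its part in the blastula results of single members was not tested. The mitochondrial share of reads was 5.68% to 8.87% in the 4-cell in vivo libraries, 31.6% to 34.7% in NTC and 29.6% to 40.4% in NTM libraries of that stage, and 32.1% to 45.0% in vivo at the 8-cell stage. This difference touches every result at the 4-cell stage. With the nuclear RPKM of every library set to an equal sum, the 4-cell calls of Suz12 and Eed in NT against in vivo embryos held and those of Rbbp4 did not, with values given beside those results.

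**Figure D1:**
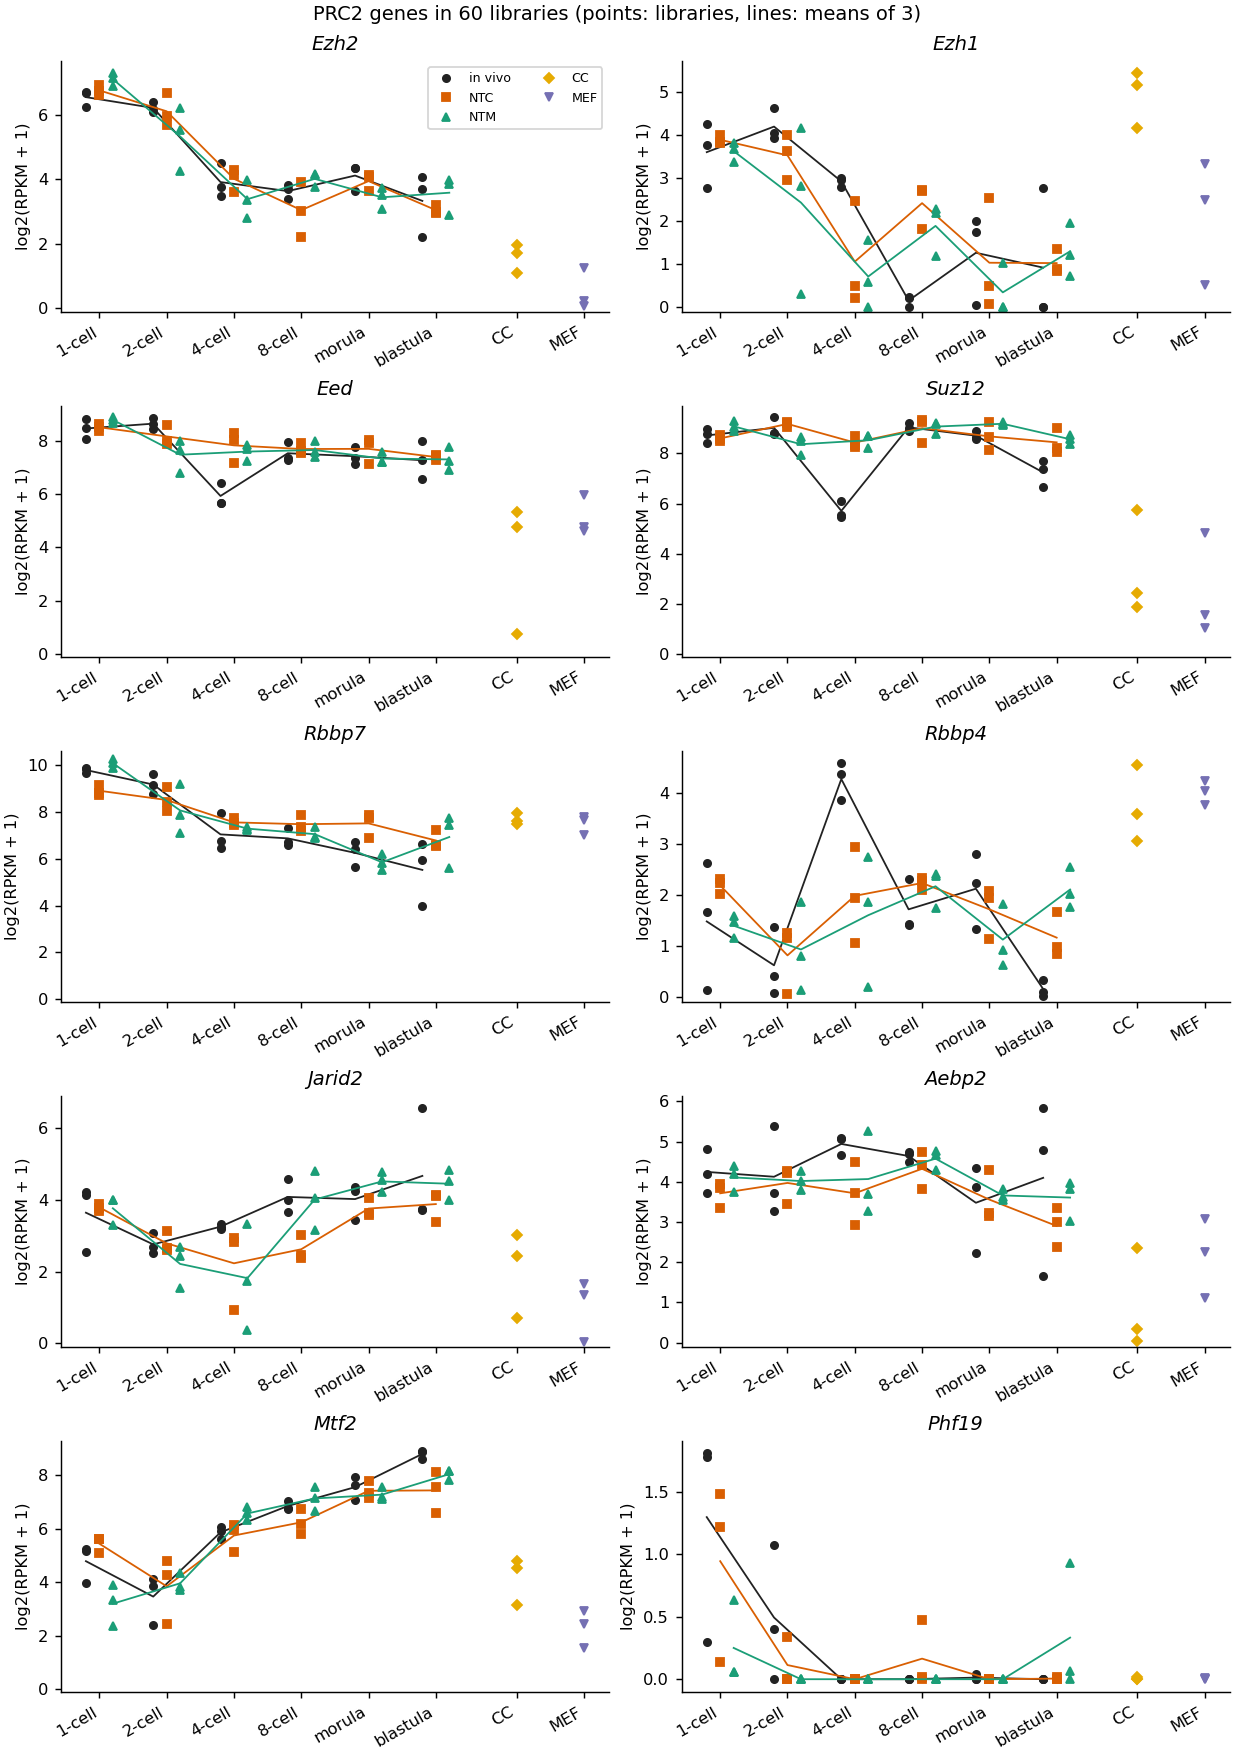
Levels of the 10 PRC2 genes as log2(RPKM + 1) in each of 60 libraries (points) by stage, with lines through the means of 3 libraries for in vivo, NTC and NTM embryos and the donor cells CC and MEF at the right. Suz12 and Eed fell at the 4-cell stage in in vivo embryos, Ezh2 was high only in 1- and 2-cell embryos, Mtf2 was highest in in vivo blastulas, and Phf19 did not exceed 2.52 RPKM.

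Ezh2, the main methyltransferase of dividing cells, was highest at the start of development in all 3 embryo types. In vivo 1-cell embryos had 75.2, 102 and 103 RPKM, and 2-cell embryos 67.0, 82.6 and 71.2 RPKM. At the 4-cell stage the values were 21.5, 10.3 and 12.5 RPKM, and no later in vivo library was above 19.6 RPKM. The groups before and after this step did not overlap. NTC embryos went from 61.7, 102 and 50.1 RPKM at the 2-cell stage to 11.3, 16.7 and 18.4 RPKM at the 4-cell stage. NTM 2-cell embryos were more spread, with 73.2, 45.0 and 18.1 RPKM, followed by 5.94, 14.9 and 9.31 RPKM. Between these stages the log2 change was -2.30 ± 0.38 (SE) in vivo (adjusted p = 0.00195) and -2.09 ± 0.42 in NTC (adjusted p = 0.00562), and both were called, that is, had a Benjamini-Hochberg adjusted p under 0.05 and a log2 change of at least 1 in size in limma. In NTM the change of -1.95 ± 0.70 missed the threshold (adjusted p = 0.0727). With median-ratio scaling of the libraries, in 1 fit over all 20 groups or without NTM 2-cell replicate 3, it was called. The difference in this change between each NT type and in vivo embryos was also tested and was not called for Ezh2 (adjusted p = 0.851 for NTC and 0.827 for NTM).

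In the donor cells Ezh2 was near its lowest, at 2.87, 1.16 and 2.32 RPKM in CCs and 0.174, 1.39 and 0.0501 RPKM in MEFs. NTC 1-cell embryos had 97.0, 121 and 106 RPKM and NTM 1-cell embryos 139, 118 and 157 RPKM, so no NT library came near its donor. The change from donor to 1-cell embryo was 5.16 ± 0.31 on the log2 scale for NTC (adjusted p = 7.0e-05) and 6.59 ± 0.39 for NTM (adjusted p = 2.2e-05).

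Ezh1, the paralog typical of cells that do not divide, exceeded Ezh2 in CCs. It was at 17.0, 35.1 and 42.9 RPKM there, above Ezh2 in each CC library and above every NTC embryo. In MEFs it was at 9.10, 4.67 and 0.436 RPKM. In vivo embryos had 15.5, 23.8 and 14.3 RPKM at the 2-cell stage, 5.98, 6.80 and 7.11 RPKM at the 4-cell stage and 0.160, 0.00648 and 0.185 RPKM at the 8-cell stage, where the lowest value is 1 read. NTC 8-cell embryos had 2.53, 5.57 and 5.65 RPKM and NTM 8-cell embryos 3.59, 1.29 and 3.87 RPKM. All 6 NT libraries thus lay above the 3 in vivo libraries at this stage, but the differences were not called (log2 2.27 ± 0.62, adjusted p = 0.0878, for NTC and 1.74 ± 0.53, adjusted p = 0.121, for NTM). In in vivo blastulas Ezh1 was 0, 0 and 5.81 RPKM, where a count of 0 allows up to 0.0257 and 0.0471 RPKM by counting error alone.

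The ratio of Ezh2 to Ezh1 within a library is nearly free of the scaling of that library where both values are well above the 0.1 RPKM added. As log2 of both values plus 0.1 RPKM, it was 1.83, 0.58 and 0.81 in in vivo 4-cell embryos and 5.66, 6.51 and 5.39 at the 8-cell stage. At the 8-cell stage NTC embryos had 1.44, 1.33 and -0.63 and NTM embryos 2.07 to 3.18, all below the in vivo libraries. The mean difference of NT from in vivo was -4.26 (6 against 3 libraries, exact two-sided permutation test, p = 0.0119, the smallest that 84 arrangements can give, adjusted p = 0.0714 over 12 tests). Its size depends on the amount added, as Ezh1 was at 0.00648 to 0.185 RPKM in these in vivo libraries. With 1 RPKM added, mean log2 values of Ezh2 and Ezh1 were 3.64 and 0.16 in in vivo 8-cell embryos. They were 3.05 and 2.42 in NTC and 4.02 and 1.89 in NTM, a smaller difference in the same direction. At the 4-cell stage the difference was 3.13 and the groups overlapped (exact permutation p = 0.0714, adjusted p = 0.171). In the donor cells the ratio was below 0 in every library, with means of -3.83 ± 1.17 (SD, n = 3) in CCs and -2.86 ± 1.91 in MEFs.

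**Figure D2:**
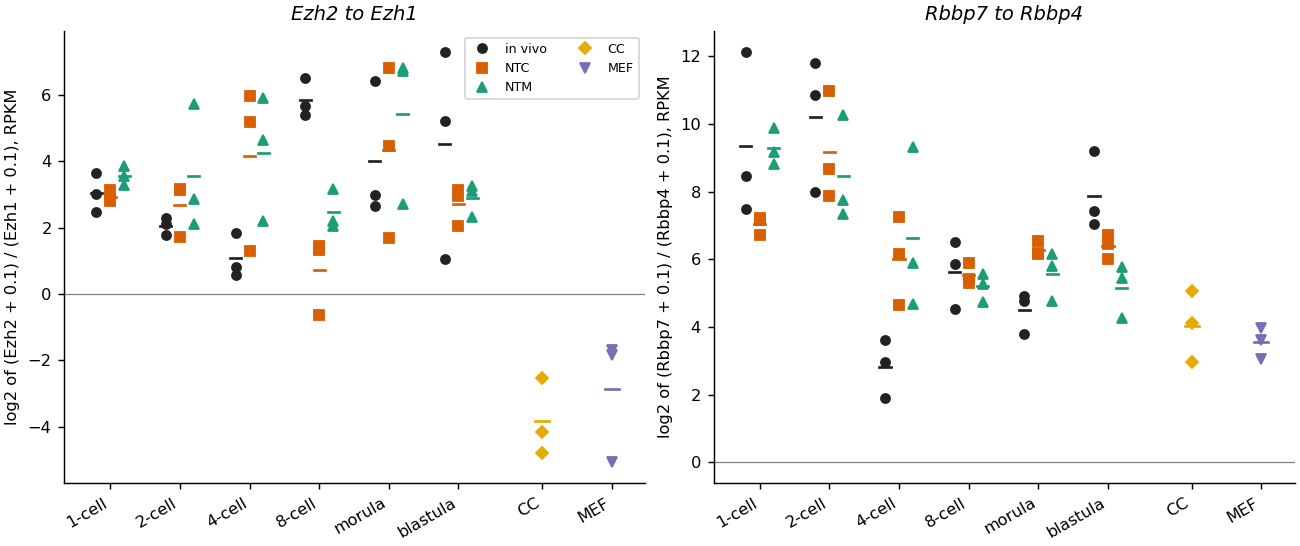
Log2 ratios of Ezh2 to Ezh1 (left) and of Rbbp7 to Rbbp4 (right), each RPKM value plus 0.1, in every library by stage and embryo type, with CC and MEF at the right and short lines for means of 3. The 8-cell in vivo libraries lay at 5.39 to 6.51 in the left panel, above the 6 NT libraries, and the 4-cell in vivo libraries at 1.89 to 3.62 in the right panel, below the 6 NT libraries.

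Suz12, the scaffold that holds the core together, fell about as far as it then rose around the in vivo 4-cell stage. In vivo 2-cell embryos had 438, 453 and 708 RPKM. The in vivo 4-cell embryos had 67.5, 43.4 and 46.3 RPKM, from 3200 to 4392 reads each. In vivo 8-cell embryos were again at 593, 479 and 514 RPKM. The fall of 3.31 on the log2 scale (-3.31 ± 0.34, adjusted p = 0.000225) and the rise of 3.33 ± 0.24 (adjusted p = 6.1e-05) thus returned Suz12 to its earlier range. At the 4-cell stage NTC embryos had 416, 303 and 327 RPKM and NTM embryos 294, 410 and 414 RPKM. The lowest of the 6 NT libraries (294 RPKM) was far above the highest in vivo one (67.5 RPKM). In the NT embryos no fall was called, with -0.74 ± 0.25 over the same step in NTC (adjusted p = 0.0431, below the fold limit) and 0.16 ± 0.40 in NTM (adjusted p = 0.772).

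Eed, whose product binds H3K27me3 and stimulates the enzyme, took the same course with a smaller amplitude. It was at 394, 459 and 342 RPKM in in vivo 2-cell embryos, 49.9, 50.05 and 84.8 RPKM at the 4-cell stage and 163, 243 and 155 RPKM at the 8-cell stage. The change was -2.71 ± 0.33 and then 1.60 ± 0.31 on the log2 scale (adjusted p = 0.000485 and 0.00468). Unlike Suz12, it did not regain its 2-cell level, and no in vivo library after the 4-cell stage was above 251 RPKM. NTC 4-cell embryos had 141, 256 and 313 RPKM and NTM 4-cell embryos 149, 205 and 229 RPKM, all above the in vivo 4-cell values. Between the 2-cell and 4-cell groups of NT embryos Eed differed by -0.34 ± 0.37 in NTC and 0.12 ± 0.48 in NTM, neither called. In NTM embryos a fall was called a stage earlier, where Eed went from 403, 439 and 471 RPKM at the 1-cell stage to 201, 249 and 109 RPKM at the 2-cell stage (-1.31 ± 0.33, adjusted p = 0.0418). That call was lost when replicate 1, 2 or 3 was left out of every group. It was also lost with no filter on low values, with median-ratio scaling and in 1 fit over all 20 groups.

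In the donor cells Suz12 and Eed differed widely between libraries of 1 kind. Suz12 was at 53.3, 4.36 and 2.65 RPKM in CCs and 27.7, 1.09 and 1.94 RPKM in MEFs, so that replicate 1 stood apart in both. Eed was at 0.676, 39.1 and 25.7 RPKM in CCs, where replicate 1 was the low one. All embryo values of both genes were above all donor values except for the in vivo 4-cell embryos, where Suz12 at 43.4 to 67.5 RPKM and Eed at 49.9 to 84.8 RPKM overlapped the highest donor libraries.

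**Figure D3:**
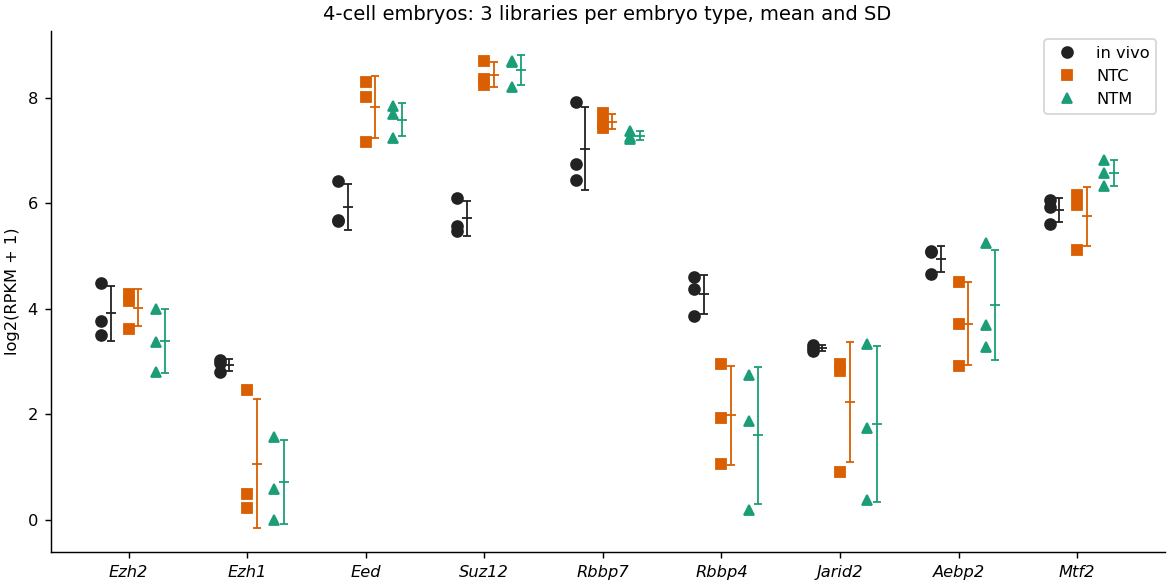
Levels of 9 PRC2 genes as log2(RPKM + 1) in 4-cell embryos, with 3 libraries per embryo type as points and the mean with its SD beside them. The in vivo libraries of Suz12 and Eed lay below all NT libraries, and those of Rbbp4 lay above them.

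Rbbp4 and Rbbp7 encode closely related histone chaperones that can take the same place in PRC2 and also serve in other chromatin complexes. Rbbp7 was the more abundant of the pair in every group. It was at 895, 942 and 804 RPKM in in vivo 1-cell embryos and fell from 429, 781 and 557 RPKM at the 2-cell stage to 85.9, 106 and 242 RPKM at the 4-cell stage (-2.13 ± 0.46, adjusted p = 0.00639). The 1-cell stage also separated the NT types: NTC embryos had 425, 570 and 445 RPKM and NTM embryos 1235, 938 and 1072 RPKM. This difference of 1.17 ± 0.16 on the log2 scale was called (adjusted p = 0.00209), and no value of the groups overlapped. It was not called in 1 fit over all 20 groups (adjusted p = 0.180). The in vivo 1-cell embryos did not differ by a call from either (log2 -0.88 ± 0.21, adjusted p = 0.0807, for NTC). Rbbp7 being X-linked, the Y-linked gene Eif2s3y is given beside it, which was at 21.8, 24.1 and 0.0147 RPKM in in vivo 4-cell replicates 1, 2 and 3, at most 0.0234 RPKM in NTC and at 14.6, 0 and 16.3 RPKM in NTM 4-cell embryos. The in vivo library low in it, replicate 3, was the one with 242 RPKM of Rbbp7. The NTM library without it, replicate 2, instead had the lowest Rbbp7 of its group, 147 RPKM against 152 and 164 RPKM. The part of embryo sex in the Rbbp7 values was not tested. Rbbp7 in the donor cells overlapped, at 175, 191 and 244 RPKM in CCs and 220, 201 and 129 RPKM in MEFs. NTM 2-cell embryos were at 583, 235 and 136 RPKM (a fall, -2.01 ± 0.46, adjusted p = 0.0308), a call lost without replicate 2 or replicate 3 of every group.

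Rbbp4 was low in nearly all embryos and was highest in in vivo 4-cell embryos, at 23.2, 13.6 and 19.6 RPKM, compared with 1.57, 0.321 and 0.0554 RPKM a stage earlier and 1.69, 1.64 and 3.98 RPKM a stage later. The rise of 3.66 ± 0.46 and the fall of -2.56 ± 0.42 on the log2 scale were both called (adjusted p = 0.000519 and 0.00224). With median-ratio scaling the fall was not called in limma (adjusted p = 0.0788). NTC 4-cell embryos had 6.70, 2.82 and 1.08 RPKM and NTM 4-cell embryos 0.138, 5.69 and 2.65 RPKM. No other embryo library exceeded 6.70 RPKM. In the donors Rbbp4 was at 22.3, 11.0 and 7.27 RPKM in CCs and 17.8, 12.6 and 15.4 RPKM in MEFs, with 3 of these 6 libraries below the lowest in vivo 4-cell embryo, and NT 1-cell embryos had 1.21 to 3.96 RPKM. Exons of Sync, a gene for an intermediate filament protein, overlap 8.94% of the Rbbp4 exon length on the other strand, and those of the noncoding gene Gm26722, not analysed here, overlap 9.10%. Sync was at 3.24, 5.18 and 2.098 RPKM in in vivo 4-cell embryos and at 0 in the 6 NT 4-cell libraries. Whether counting used the strand is not given in the sources used here, so reads of these genes in the shared stretches cannot be told apart. In blastulas Rbbp4 was at 0.0655, 0.0134 and 0.259 RPKM in vivo and at 2.37 to 4.82 RPKM in NTM, with no overlap and no call (1.96 ± 0.51, adjusted p = 0.0646). The in vivo blastula libraries also had fewer genes above 0 (7730 to 7808, against 11498 to 13568 in NTM).

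The log2 ratio of Rbbp7 to Rbbp4 was 1.89, 2.95 and 3.62 in in vivo 4-cell embryos, the lowest of any embryo group. It was 4.65, 6.16 and 7.26 in NTC and 9.32, 4.67 and 5.90 in NTM 4-cell embryos. The NT mean was 3.51 higher (exact permutation p = 0.0238, adjusted p = 0.0714), without overlap of the 6 NT and 3 in vivo libraries. In blastulas the ratio was 2.11 lower in NT than in vivo (mean difference -2.11, exact permutation p = 0.0119, adjusted p = 0.0714). This depends on the amount added, as Rbbp4 was at 0.0134 to 0.259 RPKM in in vivo blastulas. With 1 RPKM added, mean log2 values of Rbbp7 and Rbbp4 were 5.52 and 0.148 in in vivo blastulas. They were 6.78 and 1.16 in NTC and 6.92 and 2.103 in NTM. The gap between the 2 means was then larger in NTC than in vivo and smaller in NTM. In morulas the ratio was 1.44 higher in NT (exact permutation p = 0.0238, adjusted p = 0.0714). None of the 12 ratio tests passed an adjusted p of 0.05.

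Jarid2 and Aebp2, the subunits of PRC2.2, were not called in any stage transition or comparison between embryo types. Jarid2 was at 4.90, 16.8 and 17.7 RPKM in in vivo 1-cell embryos and 8.99, 8.53 and 8.13 RPKM at the 4-cell stage. One in vivo blastula, replicate 2, had 94.3 RPKM of Jarid2, whereas the other replicates had 12.3 and 12.1 RPKM. Aebp2 was at 33.0, 24.3 and 32.7 RPKM in in vivo 4-cell embryos, and in vivo blastulas spanned 2.18 to 56.3 RPKM, the whole range of the gene in embryos. Against the donors, Jarid2 was higher in NTM 1-cell embryos (8.87, 15.0 and 15.0 RPKM) than in MEFs (1.54, 2.14 and 0.0129 RPKM), by 2.76 ± 0.50 on the log2 scale (adjusted p = 0.00316).

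Mtf2, which brings PRC2.1 to CG-rich DNA, rose stage by stage in vivo from the 2-cell stage on. Before that its mean went from 28.7 RPKM at the 1-cell to 11.4 RPKM at the 2-cell stage, which was not called. In vivo embryos had 13.6, 4.28 and 16.3 RPKM at the 2-cell stage, 47.9, 60.2 and 65.4 RPKM at the 4-cell stage, 106, 110 and 129 RPKM at the 8-cell stage, 133, 247 and 201 RPKM in morulas and 481, 396 and 468 RPKM in blastulas. Groups of successive stages did not overlap from the 2-cell stage on, but only the first of these steps was called (2.40 ± 0.51, adjusted p = 0.00622). The next, 0.99 ± 0.25, missed the fold limit (adjusted p = 0.0140). The step between 2 and 4 cells was also called in NTC (1.90 ± 0.64, adjusted p = 0.0467) and NTM embryos (2.61 ± 0.52, adjusted p = 0.00769). The NTC call was lost in 5 of 6 fits that left out a library, those without NTC 2-cell replicate 1 or 2 or any of the NTC 4-cell replicates. It was also lost with median-ratio scaling, with no filter on low values and with 0.1 in place of 1 added to RPKM. NTC blastulas had 280, 190 and 96.3 RPKM and NTM blastulas 283, 284 and 227 RPKM, all below the in vivo blastulas. These differences were -1.37 ± 0.44 (adjusted p = 0.0896) and -0.76 ± 0.33 (adjusted p = 0.187), neither called, while the median gene tested was higher in NT by 0.85 and 0.86. At the 1-cell stage Mtf2 was at 32.9, 48.3 and 48.3 RPKM in NTC and 4.14, 9.11 and 13.8 RPKM in NTM embryos, a called difference of -2.25 ± 0.38 on the log2 scale (adjusted p = 0.00458) that held in each of 13 alternatives. The CCs had 26.6, 22.2 and 7.95 RPKM and the MEFs 4.38, 6.49 and 1.91 RPKM, a difference in the same direction that was not called (-1.87 ± 0.70, adjusted p = 0.197). In vivo 1-cell embryos had 14.5, 37.2 and 34.6 RPKM and were not called different from either. Exons of Tmed5 overlap 6.93% of the Mtf2 exon length on the other strand.

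Phf19, the other Polycomb-like gene measured, was at 0 in 40 of 60 libraries. At the 1-cell stage it was at 0.228, 2.52 and 2.44 RPKM in in vivo 1-cell embryos, 0.0981, 1.79 and 1.32 RPKM in NTC and 0.0420, 0.0403 and 0.553 RPKM in NTM 1-cell embryos. From the 4-cell stage on a single library exceeded 0.5 RPKM, an NTM blastula with 0.907 RPKM. It entered the tests only at the 1-cell stage and in the step from it, where its mean reached 0.5 RPKM, and was never called.

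Counted over the members, the in vivo step between 2 and 4 cells called 7 of 9 members tested, against 52.2% of the 12995 genes tested. Mtf2 and Rbbp4 rose (31.4% of genes did) and Ezh1, Ezh2, Eed, Suz12 and Rbbp7 fell (20.8% of genes did). The median change of the 9 was -1.27 and that of all genes tested 0.36. In NTC embryos 3 of 9 were called (36.6% of genes), Mtf2 up and Ezh1 and Ezh2 down, and in NTM embryos 1 of 9, Mtf2 (26.4% of genes). The call of Ezh1 in vivo was lost in 1 fit over all groups, with the replicate number as a block and without any 1 of the 4-cell libraries. That of Ezh1 in NTC was lost with no filter on low values and was kept in 2 of 6 fits that left out a library. In the next step in vivo, to 8 cells, Eed and Suz12 rose (4.40% of genes did) and Ezh1 and Rbbp4 fell (39.3% of genes did). NTM embryos had Eed and Rbbp7 lower with 2 cells than with 1 (6.68% of genes were). In the other 10 transitions limma called no member in 92 tests, of which 16 had an unadjusted p under 0.05 (2.88% of gene tests were called).

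**Figure D4:**
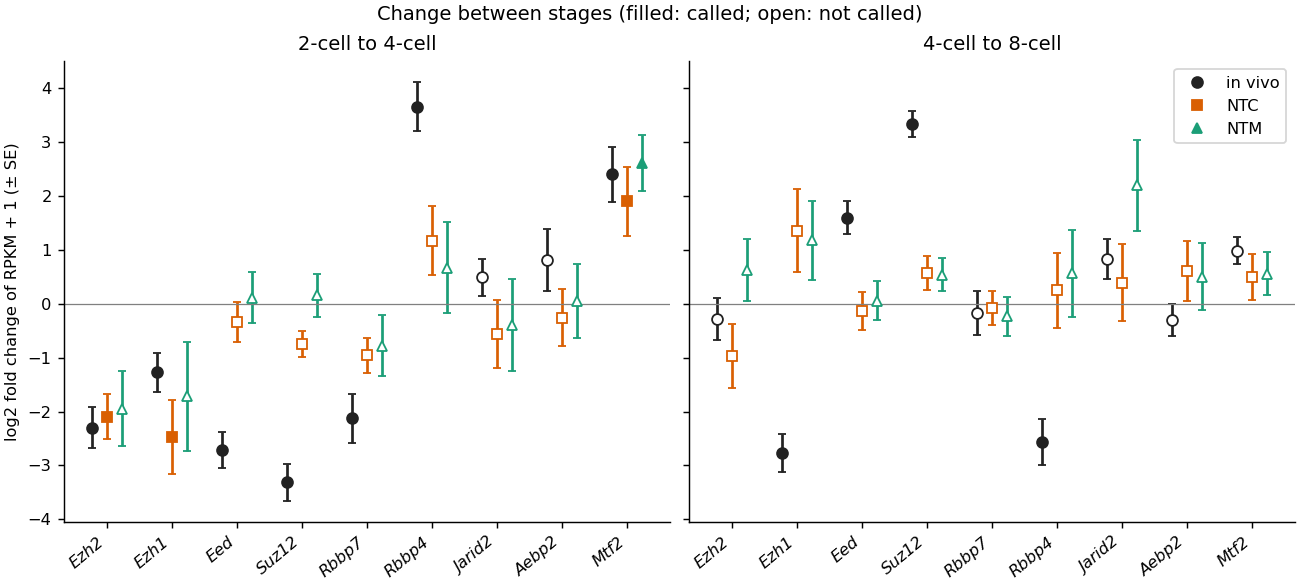
Log2 fold change of RPKM + 1 (± SE) of 9 PRC2 genes over the step between 2 and 4 cells (left) and that between 4 and 8 cells (right) in in vivo, NTC and NTM embryos, with filled symbols for called changes. In vivo, Eed changed by -2.71 and then 1.60 and Suz12 by -3.31 and then 3.33, whereas in NT embryos none of these steps was called.

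Whether a step differed between embryo types was tested as an interaction, with the same in vivo libraries on both sides of the NTC and NTM tests. For the step between 2 and 4 cells, Eed and Suz12 were called for NTC against in vivo (14.3% of genes were) and for NTM against in vivo (9.91% of genes). Suz12 differed by 2.57 ± 0.41 in NTC (adjusted p = 0.00146) and 3.47 ± 0.51 in NTM (adjusted p = 0.00132). For the step between 4 and 8 cells, Ezh1, Eed, Suz12 and Rbbp4 were called in both (19.5% of genes in NTC and 18.7% in NTM), Ezh1 and Rbbp4 with a higher and Eed and Suz12 with a lower change than in vivo. The median gene tested also had a higher change than in vivo, by 0.88 in NTC and in NTM. The Rbbp4 calls were lost with median-ratio scaling and with equal nuclear RPKM. In the other 6 interactions limma called no member in 56 tests, with 8 at an unadjusted p under 0.05 (0.187% of gene tests were called).

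At the 4-cell stage, comparison of NTC with in vivo embryos called 3 of 9 members, near the 27.8% of all genes. Eed and Suz12 were higher in NTC (7.40% of genes were) and Rbbp4 was lower (20.4% of genes were). In NTM embryos 4 of 9 were called (21.1% of genes), with Eed and Suz12 higher (3.33% of genes) and Ezh1 and Rbbp4 lower (17.8% of genes). Both comparisons use the same 3 in vivo libraries. Suz12 was higher by 2.72 ± 0.26 in NTC (adjusted p = 0.000147) and 2.82 ± 0.33 in NTM (adjusted p = 0.00135), and Eed by 1.90 ± 0.36 (adjusted p = 0.00484) and 1.66 ± 0.36 (adjusted p = 0.0160). The median gene tested changed by -0.39 and -0.69. With an equal sum of nuclear RPKM in every library the medians were 0.26 and -0.03, Suz12 was higher by 3.54 and 3.64 and Eed by 2.71 and 2.49, all 4 called. Rbbp4 was -2.30 ± 0.53 in NTC (adjusted p = 0.0124) and -2.68 ± 0.71 in NTM (adjusted p = 0.0327), but with that scaling it was -1.57 and -1.99 and neither was called, so that the called members became 3 higher and none lower in each comparison, Rbbp7 joining in NTC (1.33) and Mtf2 in NTM (1.53). Over all genes this scaling changed the genes called higher from 848 of 3189 to 1661 of 3060 in NTC and from 371 of 2355 to 753 of 1783 in NTM. Ezh1 in NTM (-2.21 ± 0.57, adjusted p = 0.0298) lost its call under both other scalings. Without in vivo replicate 1 or in vivo replicate 2 the NTM comparison called Suz12 alone. Over all genes the 2355 calls in NTM were 1218, 1034 and 1196 without in vivo 4-cell replicate 1, 2 and 3, and the 3189 in NTC were 2101 without in vivo replicate 2.

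Ezh2 did not differ by a call at the 4-cell stage, with 0.10 ± 0.40 in NTC and -0.53 ± 0.53 in NTM, and neither did Mtf2, Aebp2, Jarid2 or Rbbp7 before rescaling. In blastulas no member was called in NTC (9.46% of genes) or NTM (0.746% of genes). These shares hung on single libraries: the 879 genes called in NTC were 1 without NTC blastula replicate 2, 541 without in vivo replicate 2 and 561 without in vivo replicate 3, and the 70 in NTM were 1488 without NTM blastula replicate 3 and 1 without NTM replicate 1 or 2 or in vivo replicate 2 or 3. Of the members, 3 of 9 had an unadjusted p under 0.05 in limma in each comparison. These were Mtf2, Suz12 and Rbbp4 in both. Suz12 was at 167, 99.95 and 205 RPKM in in vivo blastulas, 267, 299.9 and 523 RPKM in NTC and 336, 426 and 379 RPKM in NTM blastulas, without overlap (1.20 ± 0.44, adjusted p = 0.123, and 1.32 ± 0.42, adjusted p = 0.0998). The median gene tested was itself higher in NT blastulas, by 0.85 and 0.86. With median-ratio scaling Mtf2 was called in NTC blastulas (lower). At the other 4 stages no member was called in 74 tests of NT against in vivo embryos, and 7 had an unadjusted p under 0.05 (0.772% of gene tests were called).

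Between the NT types, limma called 2 of 10 members at the 1-cell stage (19.8% of genes), Rbbp7 higher and Mtf2 lower in NTM. At the other 5 stages it called none in 45 tests, with 4 at an unadjusted p under 0.05 (0.00979% of gene tests were called). Between the donors no member of 9 was called for MEFs against CCs (6.29% of genes), and 2, Ezh1 and Mtf2, had an unadjusted p under 0.05. Ezh1 was lower in MEFs by -2.81 ± 0.81 (adjusted p = 0.0918). In 1 fit over all 20 groups both were called.

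Against their donors, NTC 1-cell embryos had 6 of 10 members called, close to the 50.0% of genes, with Ezh2, Eed, Suz12, Aebp2 and Rbbp7 higher and Rbbp4 lower. NTM 1-cell embryos had 7 of 9 called (55.2% of genes), with the same 5 and Jarid2 higher and Rbbp4 lower. In NTC blastulas against CCs 5 of 9 were called (24.2% of genes), Eed, Suz12 and Mtf2 higher and Ezh1 and Rbbp4 lower, and in NTM blastulas against MEFs 6 of 9 (30.8% of genes), Ezh2, Eed, Suz12, Jarid2 and Mtf2 higher and Rbbp4 lower. The Mtf2 difference was 5.76 ± 0.45 from MEFs to NTM blastulas (adjusted p = 7.1e-05) and 3.28 ± 0.57 from CCs to NTC blastulas (adjusted p = 0.00660). Of these 24 calls, 13 were made without replicate 2 and 14 without replicate 3 of every group. Suz12 was lost from the NTC calls at both stages when replicate 2 or replicate 3 was left out, and stayed called when replicate 1 was. Rbbp4 was lost in NTC 1-cell embryos and in NTC and NTM blastulas whichever replicate was left out. It stayed called in NTM 1-cell embryos.

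The other Polycomb genes listed were 4 further PRC2 partners, 21 genes of PRC1 (the complex that ubiquitinates histone H2A), 2 H3K27 demethylases and 3 genes of the H2A deubiquitinase. Of these 30 genes, 25 were tested in the in vivo step between 2 and 4 cells, where 3 rose and 10 fell. That is close to the 52.2% of all genes called (31.4% rose and 20.8% fell). PRC1 genes made up 2 of the rises and 7 of the falls. Cbx8, a chromobox reader, rose by 1.66, Asxl2, a deubiquitinase cofactor, by 1.35 and L3mbtl2, a subunit of a variant PRC1, by 1.09 on the log2 scale. Ezhip, an inhibitor of PRC2 in germ cells, went from a mean of 334 to 4.67 RPKM (-5.91 ± 0.55), Bmi1, a PRC1 core gene, from 687 to 33.6 RPKM (-4.35) and Phc1 from 18.9 to 1.07 RPKM (-3.34).

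In NTC embryos 1 of 25 tested rose over the same step and 9 fell, and in NTM embryos 1 of 26 rose and 6 fell. Of all genes, 16.4% rose and 20.1% fell in NTC and 12.1% rose and 14.3% fell in NTM, so the totals called were near those of all genes (36.6% and 26.4%). Pcgf5, which defines a variant PRC1, rose in both, from 21.3 to 427 RPKM in NTC (5.02) and from 7.51 to 338 RPKM in NTM (5.67). Ezhip changed by -5.40 in NTC and -6.67 in NTM, Phf1, a Polycomb-like gene, by -4.16 and -5.85, Phc1 by -4.29 in NTC and Cbx2 by -4.12 in NTM. Against in vivo 4-cell embryos, 6 of 25 were higher in NTC, led by Epop (2.88), Pcgf5 (2.19) and Phf1 (1.81), and 2 were lower, Pcgf1 (-4.72) and Kdm6b (-1.41). In NTM 2 of 25 were higher, Rybp (2.47) and Yaf2 (2.37), and the same 2 genes were lower, Pcgf1 (-4.21) and Kdm6b (-1.48). Of all genes, 7.40% were higher and 20.4% lower in NTC, and 3.33% higher and 17.8% lower in NTM. Pcgf1, the PCGF subunit of a variant PRC1 with KDM2B, had a mean of 190 RPKM in in vivo 4-cell embryos, 7.47 RPKM in NTC and 9.30 RPKM in NTM. At the 1-cell stage 3 of 21 were lower in NTM than in NTC and none higher: Phf1 (-5.95, with means of 141 RPKM in NTC and 1.34 RPKM in NTM), Kdm6b (-2.32) and Lcor (-1.53). Of all genes 14.2% were lower, so this count is near the background. In blastulas none of the 22 tested in NTC and 23 in NTM was called, with 3 and 4 at an unadjusted p under 0.05 in limma (9.46% and 0.746% of all genes were called). For MEFs against CCs limma called none of 28, with 2 at an unadjusted p under 0.05 (6.29% of all genes were called).

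Over the means of log2(RPKM + 1) in the 20 groups, and among 11409 genes with a mean of at least 1 RPKM, the genes most like Ezh2 were Hmgxb4 (Pearson r = 0.955), Chek1 (0.950) and D10Wsu102e (0.943). Eed was most like Cenph (0.935), Ctcf (0.927) and 1810013L24Rik (0.924), Suz12 most like Zfp984 (0.948), Tpd52 (0.918) and Dnajc21 (0.916), and Ezh1 most like Ncoa4 (0.913), Pik3r1 (0.899) and Pparg (0.891). Among the members themselves Ezh2 and Rbbp7 were closest over the 18 embryo groups (r = 0.887) and Mtf2 and Rbbp7 farthest (r = -0.866). Over all 20 groups Ezh2 and Rbbp7 had r = 0.689, the closest pair was Eed and Suz12 (r = 0.896, and 0.717 over the embryo groups), and Mtf2 and Rbbp7 were again farthest (r = -0.74). These correlations are descriptions over groups that share stage and library composition.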

How the data were processed

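Poly(A)-tailed cDNA of single embryos and of donor cells was amplified by PCR and sequenced without molecular identifiers, so floors of 3 reads cover counting error only. The authors deposited a single table, with a row of RPKM values for each of 27238 genes, and all its 60 library columns were used. Per the study's methods, reads were aligned with TopHat and Bowtie2 and counted with HTSeq, whereas the submitters' processing notes name Bowtie 0.12.2 and build mm8, and neither states the use of strand. Coordinates are from GENCODE M21 (GRCm38) and were not used to compute values. Reads per member were recovered from the RPKM values and were whole within a tolerance of 0.02. Spike-ins were not analysed here.

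Log2(RPKM + 1) was fitted with limma 3.58.1 (R 4.3.3, trended eBayes) on all genes with a mean of at least 0.5 RPKM in the fitted libraries, using only the groups compared, in 48 comparisons, of which 10 were interactions. Genes were called at a Benjamini-Hochberg adjusted p under 0.05 over all genes tested and a log2 change of at least 1 in size. Fold changes on this scale understate those of low genes. Ratios used RPKM + 0.1 and exact two-sided permutation tests over libraries. The script was tested on simulated data. Python 3.11.15, numpy 2.4.6, pandas 2.3.3 and matplotlib 3.10.9 were used for the rest.

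The members and lists were chosen with earlier results of these data known. All 10 members are named, and of 30 other Polycomb genes the 3 with the largest called rise and the 3 with the largest called fall in each of the first 9 comparisons. Markers of cumulus cells, fibroblasts, oocytes, trophectoderm and pluripotent cells served as checks. The alternatives dropped the filter, dropped the fold limit, set the pseudocount to 0.1, rescaled libraries by median ratios or to equal nuclear RPKM, pooled the 20 groups in 1 fit, added the replicate number as a block, or left out each replicate.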

Additional observations from a re-analysis of the deposited data

Results flagged for a closer look

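The change of a gene over a developmental step differed between NT and in vivo embryos in 12 interaction tests on members, 6 for NTC and 6 for NTM. The NTC and NTM tests share the in vivo libraries, and all 12 involve the in vivo 4-cell group. Values are differences of log2 changes, NT minus in vivo, from limma with Benjamini-Hochberg adjustment. For the step between 2 and 4 cells, Eed differed by 2.38 in NTC (adjusted p = 0.00875) and 2.83 in NTM (adjusted p = 0.00883). Suz12 differed by 2.57 in NTC (adjusted p = 0.00146) and 3.47 in NTM (adjusted p = 0.00132). For the step between 4 and 8 cells, Suz12 differed by -2.76 in NTC (adjusted p = 0.000524) and -2.79 in NTM (adjusted p = 0.000373), and Eed by -1.74 (adjusted p = 0.0234) and -1.54 (adjusted p = 0.0339). Ezh1 differed by 4.13 in NTC (adjusted p = 0.00333) and 3.95 in NTM (adjusted p = 0.00240), and Rbbp4 by 2.81 (adjusted p = 0.0169) and 3.13 (adjusted p = 0.0251). Suz12 stayed called in 3 of these 4 tests whichever replicate was left out of every group, the exception being NTM in the first step without replicate 2 (adjusted p = 0.0638). The Eed and Rbbp4 differences of the second step were lost without any 1 of the replicates. Those of Rbbp4 were also lost with median-ratio scaling and with equal nuclear RPKM, and in NTM with a pseudocount of 0.1. In NTC, Eed of the first step and Ezh1 of the second were lost without replicate 2 or 3. In NTM both were lost without replicate 1 or 2.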

How the results depend on the processing

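Over the step between 2 and 4 cells, the 3 calls in NTC became 1 with no filter on low values and 5 with no fold limit (1 to 3 when a library was left out), and the 1 call in NTM became 2 with median-ratio scaling or in 1 fit over all groups (1 to 2 when a library was left out). The 7 in vivo calls stayed at 6 to 8 when a library was left out. For NTM against in vivo 4-cell embryos, 4 calls became 2 with a pseudocount of 0.1 or with no filter and 1 to 6 when a library was left out, and for NTC 3 became 2 to 4. In blastulas 0 calls became 1 in NTC with median-ratio scaling, and in NTM 1 with a pseudocount of 0.1 or equal nuclear RPKM, 2 in 1 fit over all groups and 0 to 1 when a library was left out. In 1 fit over all groups the 2 calls between NT types at the 1-cell stage became 1, and the 0 calls between donors became 2. Leaving a replicate out of every group turned 6 calls of the other 12 transitions into 3 to 5, 24 calls against donors into 13 to 19, and 12 interaction calls into 3 to 7. Aebp2 turned to a called rise of 1.08 (adjusted p = 0.0423) over the in vivo step between 4 and 8 cells with median-ratio scaling. The cause was not tested in any of these. No ratio test reached an adjusted p under 0.05 in any alternative, and those with fewer libraries could not reach it. The direction of a ratio difference was not always kept. At the 1-cell stage the Ezh2 to Ezh1 ratio was 0.21 higher in NT. The NTC mean alone (2.94) lay below the in vivo mean (3.05).

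With a replicate block the 7 in vivo calls over the step between 2 and 4 cells became 6, the 4 of NTM against in vivo 4-cell embryos 3, the 6 of the other 12 transitions 7, and the 12 interaction calls 11, while the 879 genes called in NTC against in vivo blastulas became 12. In 0 of 38 comparisons did every same-numbered pair of libraries correlate above 0.1 (lowest -0.181). The labels do not say whether same-numbered libraries share a collection, and this check cannot decide it.

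The 3 libraries a group, a depth down to 5294167 reads and amplification limit what can be seen of Phf19, Rbbp4 and Ezh1, whose values near 0 rest on few reads.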
